A study of Mus musculus with 12 samples.

Results

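The genes described here are 43 mouse genes of the interferon response and of MHC class I antigen presentation, chosen by name out of the 30705 gene names in the expression table. They cover 8 roles, namely 4 interferon receptor chains, 6 transcription factors, 3 sensors of viral RNA, 18 antiviral effectors, 3 genes of the ISG15 system and of a ubiquitin ligase, 3 immunoproteasome subunits, 3 genes of peptide transport and loading, and 3 MHC class I molecules. Membership is set by gene name with no cut on a measured value, but the genes were chosen with earlier results of these data known. RNA-seq was run on 12 cultures of a murine BrafV600E melanoma line, 3 carrying a scramble control and 3 for every knockout line, named *ptgs1*-KO, *ptgs2*-KO, and *ptges*-KO. All 4 groups derive from cells of a C57BL/6 mouse with the genotype Braf+/LSL-V600E;Tyr::CreERT2+/o;p16INK4a-/-, in which a melanocyte promoter drives the Cre recombinase, so the controls carry the activated Braf allele and the p16INK4a loss as well. The knockouts were made with CRISPR/CAS9 kits and puromycin selection, and target *Ptgs1* (COX-1), *Ptgs2* (COX-2), and *Ptges* (mPGES-1), whose enzymes make prostaglandin E2. Subclones were obtained by limiting dilution. A legend of the study describes the 3 samples of a line as 3 subclones, while its results call them independent samples. The p-values thus measure the spread between the samples of a line under one culture condition, whichever of these they are. The labels name no interferon or other stimulus.

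Type I interferons bind a receptor made of IFNAR1 and IFNAR2, and interferon gamma binds IFNGR1 and IFNGR2. Both receptors act through JAK kinases on transcription factors: a complex that holds STAT2 and IRF9 binds the interferon-stimulated response element (ISRE), and the gamma-activated site (GAS) is a DNA element of the interferon gamma response. The induced genes include sensors of viral RNA, proteins that block viral entry, replication, and release, and the machinery that cuts proteins into peptides, carries the peptides into the endoplasmic reticulum, and loads them on MHC class I, which shows them to CD8 T cells. In tumor cells this machinery is also expressed at a basal level without interferon.

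The promoters of these genes were searched for the letters of both elements. RefSeq promoters on GRCm38.p6 were available for 36 of the 43 genes (not for *Dhx58*, *Mx1*, *Mx2*, *Nlrc5*, *Parp14*, *Tap2*, and *Usp18*). The ISRE core, GAAA followed by any 2 bases and another GAAA, searched on both strands in the 250 bases before the start site, was found in 10 of the 36 promoters (27.8%) and in 3.46% of all 27025 genes with a promoter. These were the promoters of *B2m*, *Bst2*, *Gbp2*, *Gbp3*, *Ifit1*, *Ifit3*, *Isg15*, *Oas1a*, *Rsad2*, and *Stat2*. The GAS core, TTC followed by any 3 bases and GAA, which reads the same on both strands, was found in 8 of the 36 (22.2%) and in 8.13% of all genes, at *Bst2*, *Eif2ak2*, *Ifit2*, *Ifnar2*, *Irf1*, *Isg20*, *Oas1a*, and *Psmb8*. Matches can overlap each other, and a match is a stretch of letters, not a bound site. Of the 10 genes with an ISRE match, 7 had a mean over all samples below 1 RPKM, and *Bst2*, *Stat2*, and *B2m* had a mean above it. The stretches before the start sites of 5 genes are shown because their levels are described below: *Isg15* and *Ifit1* were highest in *ptgs1*-KO cells, *Bst2* was higher in all knockouts, *B2m* had the highest level of the 43 genes, and *Irf1* has a GAS match without an ISRE match. Each is written 5′ to 3′ on the strand of its gene, with ISRE and GAS matches in capitals. Positions are chr4:156200819-156200968 on the minus strand for *Isg15*, chr19:34640744-34640870 on the plus strand for *Ifit1*, chr8:71537473-71537622 on the minus strand for *Bst2*, chr2:122147537-122147685 on the plus strand for *B2m*, and chr11:53769864-53770013 on the plus strand for *Irf1*.
Isg15: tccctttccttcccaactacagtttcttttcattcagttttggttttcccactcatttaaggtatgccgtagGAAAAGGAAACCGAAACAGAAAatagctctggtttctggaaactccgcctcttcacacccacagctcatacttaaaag
Ifit1: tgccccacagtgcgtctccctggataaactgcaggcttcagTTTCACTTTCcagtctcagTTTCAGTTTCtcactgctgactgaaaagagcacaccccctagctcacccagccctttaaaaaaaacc
Bst2: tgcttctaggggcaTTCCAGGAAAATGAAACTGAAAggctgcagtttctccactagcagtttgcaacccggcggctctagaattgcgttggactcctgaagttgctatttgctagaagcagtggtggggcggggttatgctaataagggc
B2m: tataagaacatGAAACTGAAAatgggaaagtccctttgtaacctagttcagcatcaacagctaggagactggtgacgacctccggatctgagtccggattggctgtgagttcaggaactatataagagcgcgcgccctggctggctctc
Irf1: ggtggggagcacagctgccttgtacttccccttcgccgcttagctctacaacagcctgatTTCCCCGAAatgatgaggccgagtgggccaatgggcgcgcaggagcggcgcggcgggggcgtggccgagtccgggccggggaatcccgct
*Isg15* holds 3 overlapping ISRE matches that form 1 run of capitals. *Ifit1* holds 2 separate matches in the reverse orientation (so that TTTC stands for GAAA), and in *Bst2* a GAS match runs into 2 overlapping ISRE matches. *B2m* and *Irf1* each hold 1 match.

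The values are taken as RPKM, read counts scaled by transcript length and library size, so levels can be compared roughly between genes. Between samples this scaling leaves differences in library composition. Factors from a scaling by the median ratio ran from 0.934 (*ptgs1*-KO replicate 3) to 1.06 (*ptgs1*-KO replicate 1), and some counts of calls moved with the scaling. Tests were run by limma on log2(RPKM + 1) over the 11282 genes whose mean reached 1 RPKM, and a gene was called where its p-value, adjusted by Benjamini-Hochberg over all of them, was under 0.05. Fold changes are on this log2(RPKM + 1) scale, which understates the change of low genes, and each ± after a fold change is its standard error. The estimated depth was 13460000 to 17060000 reads per sample. The targeted genes checked the labels: each fell in its own knockout, *Ptgs1* to 10.6% of its scramble mean, *Ptgs2* to 10.5%, and *Ptges* to 47.9%. In *ptgs1*-KO cells *Ptgs2* and *Ptges* were lower as well, at 78.5% and 70.2% of their scramble means (adjusted p = 0.0386 and 0.00110). The library of *ptgs1*-KO replicate 3 stood apart, with 32.2% of its summed RPKM in its 20 highest genes against 21.4% to 26.3% in the others. Calls of pathway genes given below that were lost without it are named, and the targeted genes are given with it only. Of the melanocytic markers, *Sox10*, *Mlana*, *Tyrp1*, and *Dct* were listed at 0 in all samples, *Mitf* reached 3.35 RPKM, and the sum of the 8 markers was 1.92 to 5.16 RPKM. Summed markers of immune cells were 0.05 to 0.16 RPKM in all 4 groups, with *Ptprc* at most at 0.13, and those of endothelial and epithelial cells were at or below 0.17. The bulk values give RNA per library, so that fewer cells with a gene on and less RNA per cell cannot be told apart.

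Of the 43 genes, 23 reached this mean and were tested, and all of these were above 1 RPKM in all samples. Means were at least 100 RPKM for 4 genes (*Ifitm3*, *B2m*, *H2-K1*, and *H2-D1*), between 10 and 100 RPKM for 13, and between 1 and 10 RPKM for 6. The 20 genes below the limit had means under 1 RPKM, 9 of them under 0.1 RPKM, and comprise most of the classical virus-induced genes (*Mx1*, *Mx2*, *Rsad2*, *Oas1a*, *Oasl1*, *Oasl2*, *Isg15*, *Usp18*). The pattern was thus a high basal level of the class I molecules and of *Ifitm3*, and intermediate levels of receptors, most signaling genes, and peptide transport genes. Most antiviral effectors had means under 1 RPKM, as the plot of all 43 genes shows.

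**Figure D1:**
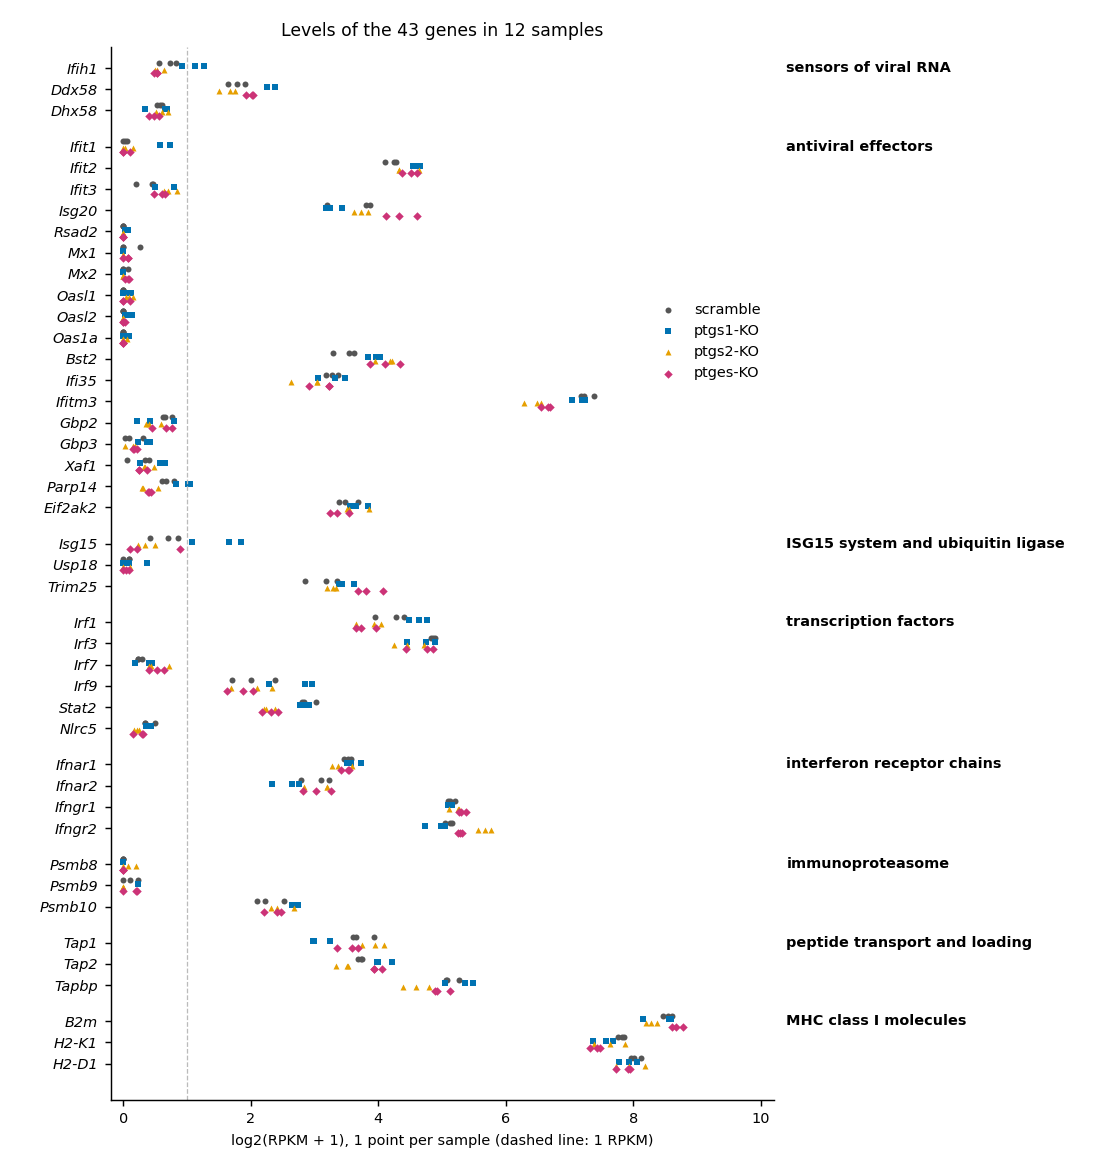
Levels of the 43 genes by role, with log2(RPKM + 1) on the horizontal axis and 1 point per sample for the 4 groups of 3 samples. The dashed line marks 1 RPKM: 20 genes have a mean below it, and *B2m*, *H2-K1*, *H2-D1*, and *Ifitm3* lie farthest to the right, with means of at least 100 RPKM.

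In *ptgs1*-KO cells 5 of the 23 genes tested differed from scramble cells, with *Ddx58*, *Ifit2*, *Bst2*, and *Tap2* higher and *Tap1* lower. In *ptgs2*-KO cells *Bst2* and *Ifngr2* were higher and *Ifitm3*, *Stat2*, and *Tapbp* lower, again 5 genes. In *ptges*-KO cells *Isg20*, *Bst2*, and *Trim25* were higher and *Ifitm3*, *Stat2*, *Irf1*, and *H2-K1* lower, 7 genes in all. These counts are 21.7%, 21.7%, and 30.4% of the 23. Of all genes the same test called 9.26% for *ptgs1*-KO (4.65% higher, 4.61% lower), 11.1% for *ptgs2*-KO (5.97% higher, 5.17% lower), and 26.3% for *ptges*-KO (11.9% higher, 14.4% lower). The median log2 fold change of the 23 was 0.01, -0.08, and -0.03 in the 3 lines, and that of all genes tested 0.01, 0.01, and -0.03, so the 23 genes had no common direction in these medians. *Bst2* was called in all 3 lines, *Ifitm3* and *Stat2* in 2, and 10 genes in 1. The 3 comparisons share the scramble samples and are therefore not independent of each other. The count in *ptgs1*-KO cells fell to 2 without scramble replicate 3 or *ptgs1*-KO replicate 2 and to 3 without scramble replicate 1 or 2, *ptgs1*-KO replicate 1, or *ptges*-KO replicate 2. With scaling by the median ratio the split in *ptges*-KO cells was 7 higher and 4 lower instead of 3 and 4. *Ifit2*, *Ifngr1*, *Ifngr2*, and *Tap2* were then also called. With quantile normalization the split was 8 and 4. All genes moved as well, from 1342 higher and 1627 lower to 1895 and 1826 with the median ratio and 1870 and 1606 with quantile normalization.

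**Figure D2:**
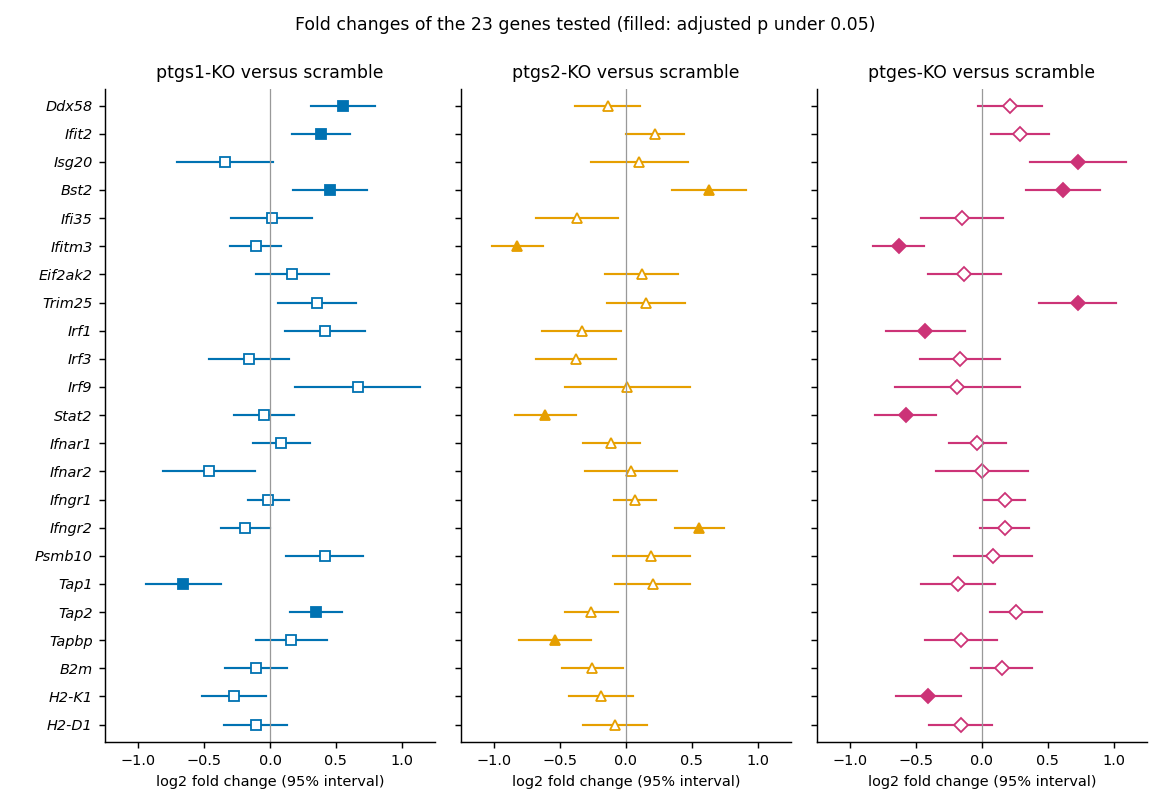
Fold changes of the 23 genes tested for each knockout against scramble cells, as log2 of (RPKM + 1) ratios with 95% intervals from limma (3 samples per group). Filled symbols mark an adjusted p under 0.05, with 5, 5, and 7 genes in the 3 panels, and *Bst2* is the gene with a filled symbol in all of them.

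Of 20 interferon genes listed, 17 were in the table and 12 of them, among them *Ifnb1* and *Ifng*, were listed at 0 in all samples. The highest value of any was 0.26 RPKM, for *Ifna5* in *ptgs1*-KO replicate 3. Neither *Ifnb1* nor *Ifng* RNA was therefore detected at this depth in any line.

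The 4 receptor chains were all expressed, from 4.02 RPKM (*Ifnar2*) to 53.29 RPKM (*Ifngr2*). On the values as deposited, 1 of them was called against scramble cells. *Ifngr2* (chr16:91547072-91565623, plus strand on GRCm38), the signaling chain of the interferon gamma receptor that brings in JAK2, was 34.72, 32.20, and 33.84 RPKM in scramble cells and 46.51, 53.29, and 50.02 in *ptgs2*-KO cells. It was 31.97, 30.82, and 25.73 in *ptgs1*-KO cells and 37.95, 37.13, and 38.79 in *ptges*-KO cells. The *ptgs2*-KO samples thus lay above all others without overlap. The rise over scramble cells was 0.56 ± 0.087 (adjusted p = 0.00134), and *Ifngr2* was also higher in *ptgs2*-KO than in *ptgs1*-KO cells (0.74 ± 0.087, adjusted p = 4.46e-05) and lower in the *ptges*-KO than in the *ptgs2*-KO line (-0.39 ± 0.087, adjusted p = 0.00888). *Ifngr1*, the ligand-binding chain of the same receptor, was 33.03 to 40.59 RPKM and was called in no comparison. Against scramble cells it differed by 0.07 on the log2 scale in *ptgs2*-KO samples, with a 95% interval from -0.09 to 0.23.

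*Ifnar1* and *Ifnar2* form the type I receptor. *Ifnar1* was 8.72 to 12.31 RPKM in the 12 samples and was called in no comparison. *Ifnar2* was 7.58, 8.33, and 5.90 RPKM in scramble cells and 5.25, 5.74, and 4.02 in *ptgs1*-KO cells, a difference that did not pass the test (-0.46 ± 0.16). It was higher in *ptgs2*-KO (7.48 ± 1.18 RPKM, SD, n = 3) and *ptges*-KO cells (7.28 ± 1.27) than in *ptgs1*-KO cells (5.00 ± 0.886), with adjusted p = 0.0405 and 0.0456. Both calls were lost without *ptgs1*-KO replicate 1 or 3, and at several other samples left out, with adjusted p up to 0.176.

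Among the transcription factors, *Stat2* was called in *ptgs2*-KO and *ptges*-KO cells. It encodes a partner of IRF9 in the type I complex, lies at chr10:128270559-128292849 on the plus strand, and has an ISRE match in its promoter. *Stat2* was 6.17, 5.95, and 7.12 RPKM in scramble cells and 5.85, 6.53, and 6.13 in *ptgs1*-KO cells. It was 3.71, 4.21, and 3.63 in *ptgs2*-KO cells and 4.37, 3.99, and 3.54 in *ptges*-KO cells. The latter 6 samples lay below the former 6 without overlap. *Stat2* fell by 0.61 ± 0.11 in *ptgs2*-KO cells (adjusted p = 0.00286) and by 0.58 ± 0.11 in *ptges*-KO cells (adjusted p = 0.00183), and it was lower in both than in *ptgs1*-KO cells (adjusted p = 0.00180 and 0.00231). Between *ptgs1*-KO and scramble cells the difference was -0.05, with a 95% interval from -0.28 to 0.18.

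*Irf1*, a factor of the interferon gamma response that also acts at class I genes, was 20.11, 18.50, and 14.47 RPKM in scramble, 26.17, 23.97, and 21.29 in *ptgs1*-KO, 14.30, 15.51, and 11.52 in *ptgs2*-KO, and 14.67, 11.59, and 12.26 in *ptges*-KO cells. All *ptgs1*-KO samples lay above all other samples. *Irf1* was lower in *ptgs2*-KO (-0.75 ± 0.14, adjusted p = 0.00156) and *ptges*-KO cells (-0.84 ± 0.14, adjusted p = 5.88e-04) than in *ptgs1*-KO cells. Against scramble cells it fell by 0.43 ± 0.14 in *ptges*-KO cells (adjusted p = 0.0383), with overlap between the groups, and this call was lost without scramble replicate 1 or 2 or *ptges*-KO replicate 2 or 3 (adjusted p = 0.104 to 0.143). Its difference of 0.42 ± 0.14 in *ptgs1*-KO cells did not pass the test (adjusted p = 0.0859).

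*Irf9*, the DNA-binding part of the complex with STAT2, had a similar order of levels with a wider spread. It was 2.26, 4.18, and 3.03 RPKM in scramble cells and 6.75, 6.21, and 3.87 in *ptgs1*-KO cells, and 2.08 to 4.05 in the other knockouts. It was lower in *ptges*-KO than in *ptgs1*-KO cells (-0.85 ± 0.22, adjusted p = 0.0106) and in *ptgs2*-KO than in *ptgs1*-KO cells (-0.66 ± 0.22, adjusted p = 0.0451), and the latter call was lost in 11 of 19 alternatives. *Irf9* overlaps *Rnf31* on the same strand, and how the counting treated shared bases is not given in the sources used here. *Irf3*, the factor downstream of the RNA sensors, was 18.08 to 28.60 RPKM and was called in no comparison. *Irf7*, the interferon-induced factor that amplifies type I interferon, was 0.14 to 0.64 RPKM, and *Nlrc5*, the transactivator of class I genes, 0.11 to 0.41 RPKM, both below the limit for testing.

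The RNA sensors were led by *Ddx58* (chr4:40203773-40239828, minus strand), which encodes RIG-I. It was 2.14, 2.45, and 2.75 RPKM in scramble, 3.75, 4.19, and 4.21 in *ptgs1*-KO, 2.18, 2.38, and 1.83 in *ptgs2*-KO, and 3.06, 3.12, and 2.79 in *ptges*-KO cells. The *ptgs1*-KO samples were the highest, and the *ptgs2*-KO samples overlapped with the scramble samples. *Ddx58* rose by 0.55 ± 0.11 in *ptgs1*-KO cells (adjusted p = 0.00747) and was lower in *ptgs2*-KO than in *ptgs1*-KO cells (-0.69 ± 0.11, adjusted p = 6.48e-04). It was also called lower in *ptges*-KO than in *ptgs1*-KO cells (-0.34 ± 0.11, adjusted p = 0.0377) and higher in *ptges*-KO cells than in the *ptgs2*-KO line (0.35 ± 0.11, adjusted p = 0.0495). The last call was lost in 14 alternatives, among them leaving out any 1 sample of *ptgs2*-KO or *ptges*-KO cells (adjusted p = 0.0618 to 0.159), and the one before it with quantile normalization (adjusted p = 0.157) and without *ptgs1*-KO replicate 2 or 3 or any *ptges*-KO sample (adjusted p = 0.0618 to 0.122). *Ifih1*, which encodes MDA5, was highest in the same line at a lower level, with 1.41, 0.90, and 1.18 RPKM in *ptgs1*-KO cells and 0.39 to 0.77 in the 9 other samples. *Dhx58*, for the third sensor LGP2, was 0.27 to 0.62 RPKM with all groups overlapping.

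Of the 18 antiviral effectors, 6 were tested. *Bst2* (chr8:71534255-71537456, minus strand), which encodes tetherin, a membrane protein that holds budding virus at the cell surface, was 11.35, 10.60, and 8.80 RPKM in scramble cells. It was 13.26, 15.22, and 14.56 in *ptgs1*-KO, 14.49, 17.49, and 17.21 in *ptgs2*-KO, and 13.56, 16.23, and 19.29 in *ptges*-KO cells. All 9 knockout samples lay above the 3 scramble samples. The rise was 0.63 ± 0.13 in *ptgs2*-KO (adjusted p = 0.00789), 0.62 ± 0.13 in *ptges*-KO (adjusted p = 0.00392), and 0.45 ± 0.13 in *ptgs1*-KO cells (adjusted p = 0.0454). The last call was the least firm of the 3, being lost in 13 of 20 alternatives, without any 1 of the scramble or *ptgs1*-KO samples (adjusted p = 0.0563 to 0.161) and with either other scaling (0.0732 and 0.0828). It was also lost without *ptgs2*-KO replicate 2 or 3 or *ptges*-KO replicate 2, which enter only through the shared spread. *Bst2* was called in none of the comparisons between knockouts.

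*Ifitm3* (chr7:141009586-141010770, minus strand) encodes a membrane protein that blocks the entry of enveloped viruses, and had the highest level of the antiviral effectors. It was 166.35, 149.09, and 143.92 RPKM in scramble and 150.08, 145.76, and 130.03 in *ptgs1*-KO cells. It was 76.63, 92.53, and 89.34 in *ptgs2*-KO and 93.19, 99.82, and 102.10 in *ptges*-KO cells, below all scramble and *ptgs1*-KO samples. *Ifitm3* fell by 0.82 ± 0.090 in *ptgs2*-KO cells (adjusted p = 6.60e-05) and by 0.63 ± 0.090 in *ptges*-KO cells (adjusted p = 2.91e-04), and it was lower in both than in *ptgs1*-KO cells (adjusted p = 7.67e-05 and 7.65e-04). In *ptgs1*-KO cells it differed from scramble cells by -0.11, with a 95% interval from -0.30 to 0.09. Of its neighbors on chromosome 7, *Ifitm1* was 34.16, 23.90, and 25.89 RPKM in scramble cells and 4.89 to 9.52 in all knockout samples, with log2 fold changes of -2.10, -1.93, and -1.52 (SE 0.14 each) in the order *ptgs1*-KO, *ptgs2*-KO, *ptges*-KO (adjusted p = 5.69e-07, 1.75e-06, and 8.50e-06). *Ifitm2* was 140.41 to 306.55 RPKM over all samples and was lower in *ptgs2*-KO (-0.71 ± 0.15, adjusted p = 0.00761) and *ptges*-KO cells (-0.45 ± 0.15, adjusted p = 0.0371). The Ifitm genes are close copies of each other, so reads may have been shared between them.

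*Isg20* (chr7:78913424-78920396, plus strand), for an exonuclease of single-stranded RNA, was 13.68, 8.16, and 12.99 RPKM in scramble, 8.06, 9.81, and 8.42 in *ptgs1*-KO, 11.31, 12.28, and 13.24 in *ptgs2*-KO, and 16.44, 23.44, and 19.14 in *ptges*-KO cells. The *ptges*-KO samples lay above the 9 others. *Isg20* rose by 0.73 ± 0.17 against scramble cells (adjusted p = 0.00698), by 1.07 ± 0.17 against *ptgs1*-KO cells (adjusted p = 4.02e-04), and by 0.63 ± 0.17 against *ptgs2*-KO cells (adjusted p = 0.0221). The last call was lost without *ptgs2*-KO replicate 1 or 2 or *ptges*-KO replicate 2 or 3 (adjusted p = 0.0592 to 0.108).

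*Ifit2*, which encodes a protein that binds foreign RNA, stood apart from its family in these cells. It was 16.31 to 18.37 RPKM in scramble, 22.27 to 24.26 in *ptgs1*-KO, 19.05 to 23.99 in *ptgs2*-KO, and 19.80 to 23.51 in *ptges*-KO cells, while *Ifit1* and *Ifit3* stayed below 1 RPKM. *Ifit2* was called in *ptgs1*-KO cells (0.39 ± 0.10, adjusted p = 0.0306), and not when any 1 of the 6 samples compared was left out (adjusted p = 0.0543 to 0.117). In *ptges*-KO cells its difference of 0.29 ± 0.10 had an adjusted p of 0.0501. *Eif2ak2*, for the kinase PKR that stops translation on double-stranded RNA, was 8.47 to 13.49 RPKM, and *Ifi35* 5.22 to 10.14 RPKM. Both were called in no comparison.

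*Trim25* (chr11:88999376-89020293, plus strand) encodes the ubiquitin ligase that acts with RIG-I. It was 8.04, 6.23, and 9.18 RPKM in scramble, 11.35, 9.44, and 9.80 in *ptgs1*-KO, 8.76, 9.15, and 8.20 in *ptgs2*-KO, and 15.84, 13.01, and 11.81 in *ptges*-KO cells. The *ptges*-KO samples were the highest of all. The rise was 0.73 ± 0.14 against scramble (adjusted p = 0.00193) and 0.58 ± 0.14 against *ptgs2*-KO cells (adjusted p = 0.0112), and both calls held in all 20 alternatives. Against *ptgs1*-KO cells the difference of 0.37 ± 0.14 had an adjusted p of 0.0540.

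**Figure D3:**
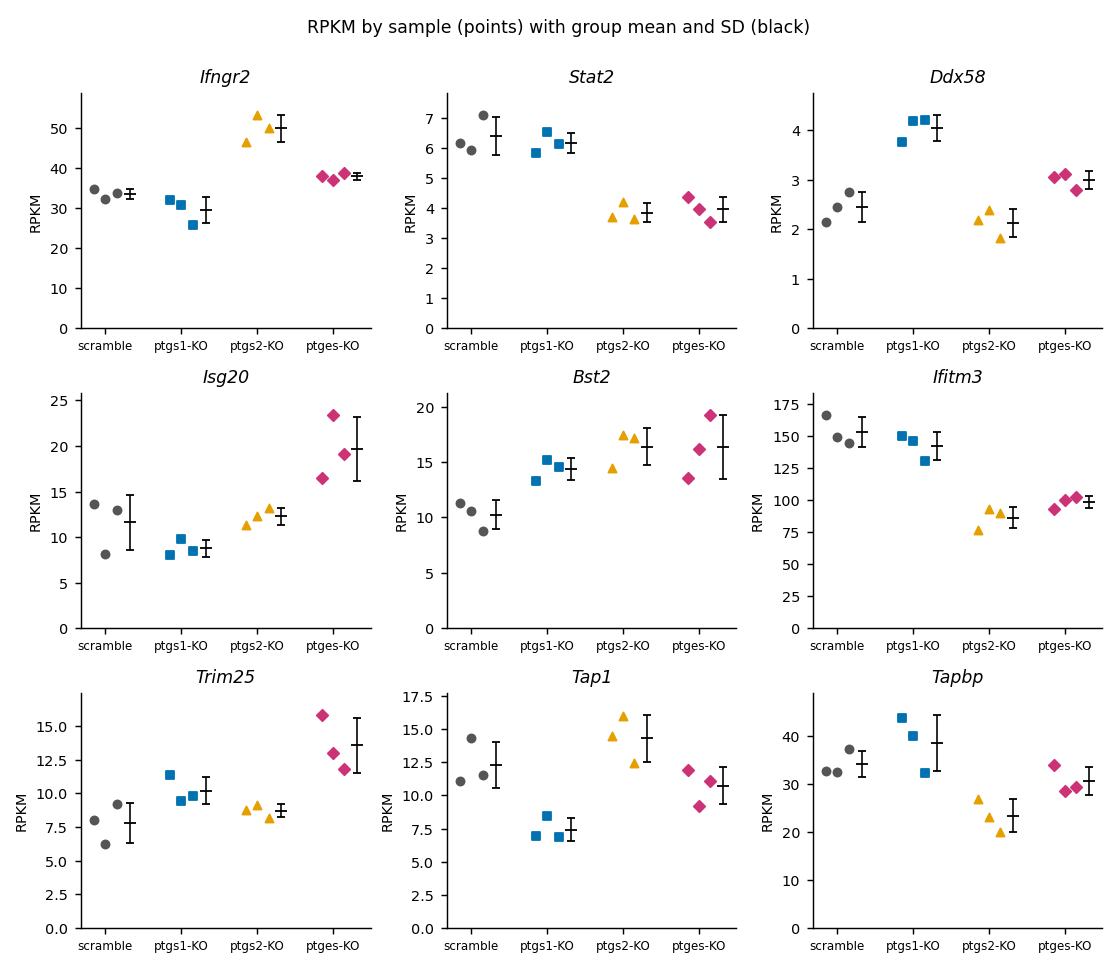
RPKM of 9 genes by sample on linear axes from 0, with 3 points per group and the group mean and SD in black. The genes are those called against scramble cells and shifted by 0.5 or more on the log2 scale in either direction: *Ifitm3* and *Stat2* are low in *ptgs2*-KO and *ptges*-KO samples, *Bst2* is higher in all 9 knockout samples, and *Ddx58* and *Tap1* set the *ptgs1*-KO samples apart.

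The 20 genes below the limit for testing include many known interferon-induced effectors. Their summed level was 4.0 to 4.84 RPKM in scramble cells, 7.62 to 8.32 in *ptgs1*-KO, 3.20 to 4.36 in *ptgs2*-KO, and 3.48 to 4.41 in *ptges*-KO cells. The 3 *ptgs1*-KO samples were the highest of the 12, and 12 of the 20 genes had their highest group mean in *ptgs1*-KO cells, as had 27.7% of all 7341 genes below the limit that were not at 0 throughout. *Isg15*, for the ubiquitin-like protein that is joined to other proteins after interferon, was the highest of the 20 in 2 of the *ptgs1*-KO samples. It was 0.34, 0.81, and 0.63 RPKM in scramble, 1.11, 2.61, and 2.15 in *ptgs1*-KO, 0.41, 0.26, and 0.18 in *ptgs2*-KO, and 0.85, 0.16, and 0.08 in *ptges*-KO cells. With a transcript of 756 bases, 1 read of *Isg15* was worth 0.0775 to 0.0983 RPKM at the estimated depths, so the lowest of these values stands for about 1 read.

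*Ifit1* was 0.66, 0.49, and 0.67 RPKM in *ptgs1*-KO cells and 0 to 0.11 in the 9 other samples, 4 of which were listed at 0. *Parp14*, for an ADP-ribosyltransferase, was 1.03, 0.77, and 1.06 RPKM in *ptgs1*-KO cells, 0.59, 0.52, and 0.74 in scramble cells, and 0.22 to 0.46 in the other knockouts. *Rsad2*, which encodes viperin, was 0.02, 0.04, and 0.05 RPKM in *ptgs1*-KO cells and listed at 0 in all others, where 1 read was worth 0.0140 to 0.0177 RPKM. *Ifit3* was 0.15 to 0.38 RPKM in scramble cells and 0.40 to 0.79 in the knockout samples. *Mx1* was at most 0.20 RPKM, *Mx2* 0.07, *Oasl1* 0.11, *Oasl2* 0.10, *Oas1a* 0.07, and *Usp18*, which removes ISG15 from proteins, 0.30. The guanylate-binding protein genes *Gbp2* and *Gbp3* were 0.16 to 0.74 and 0.02 to 0.34 RPKM over all samples, and *Xaf1*, a gene of cell death, was 0.04 to 0.58 RPKM.

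Without the limit, 18623 genes were tested, and *Ifit1* (0.65 ± 0.054, adjusted p = 3.75e-05) and *Ifih1* (0.40 ± 0.091, adjusted p = 0.0274) were the 2 of these 20 genes called in *ptgs1*-KO against scramble cells, where 6.36% of all genes were called, 3.4% higher. In *ptges*-KO cells *Parp14* alone of the 20 was called (-0.28 ± 0.083, adjusted p = 0.0425), beside 16.1% of all genes (8.74% lower), and in *ptgs2*-KO cells none was, beside 7.04%. Against *ptgs1*-KO cells 7 of the 20 were lower in *ptgs2*-KO cells (7.54% of all genes were called lower) and 5 in *ptges*-KO cells (10.6%). *Ifih1*, *Ifit1*, *Isg15*, *Parp14*, and *Rsad2* were in both sets, and *Nlrc5* and *Psmb9* in the first. *Isg15* was lower by 1.17 ± 0.23 (adjusted p = 0.00654) in *ptgs2*-KO cells and by 1.12 ± 0.23 (adjusted p = 0.00691) in *ptges*-KO cells, while its difference between *ptgs1*-KO and scramble cells did not pass the test. Without *ptgs1*-KO replicate 3, *Ifit1* remained called against scramble cells (adjusted p = 4.32e-04), *Ifih1* did not (0.0702), and *Oasl2* was called in addition. *Ifih1*, *Ifit1*, *Isg15*, *Parp14*, and *Rsad2* remained called in both comparisons with *ptgs1*-KO cells (adjusted p = 1.80e-04 to 0.0413), and *Nlrc5* and *Psmb9* were lost (0.0925 and 0.0726).

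**Figure D4:**
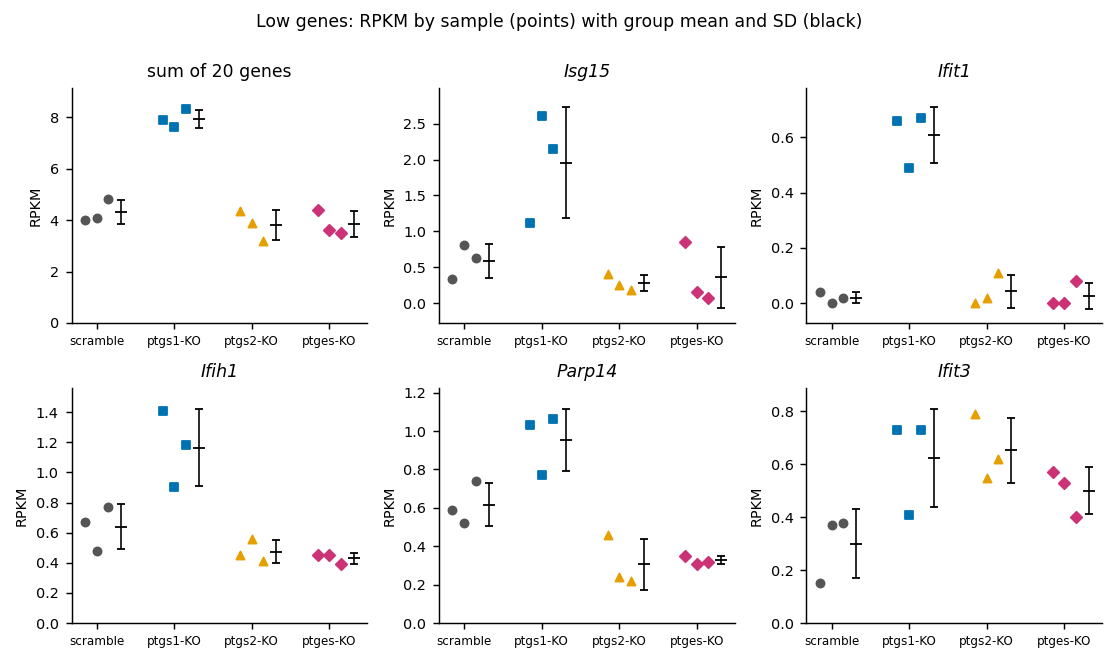
RPKM by sample for the 20 genes below the limit for testing, as their sum and for *Isg15*, *Ifit1*, *Ifih1*, *Parp14*, and *Ifit3*, with the group mean and SD in black (3 samples per group). The sums of the *ptgs1*-KO samples lie between 7.62 and 8.32 RPKM and those of the 9 other samples between 3.20 and 4.84, while for *Ifit3* the 3 knockouts overlap.

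Of the immunoproteasome subunits, *Psmb8* and *Psmb9* RNA was close to absent, and *Psmb10* RNA was present in all samples. Each catalytic subunit of the immunoproteasome takes the place of a constitutive one when cells meet interferon gamma, PSMB8 for PSMB5, PSMB9 for PSMB6, and PSMB10 for PSMB7. *Psmb8* was listed at 0 in 10 of 12 samples and was 0.05 and 0.15 RPKM in *ptgs2*-KO replicates 2 and 3. *Psmb9* was at most 0.18 RPKM, with 0.17, 0.18, and 0.17 in *ptgs1*-KO cells, 0 in the 3 *ptgs2*-KO samples, and 0.08, 0, and 0.17 in scramble cells. The constitutive *Psmb5*, *Psmb6*, and *Psmb7* were between 90.65 and 195.89 RPKM and were called against scramble cells in no line. *Psmb10* was 3.26 to 4.76 RPKM in scramble, 5.27 to 5.67 in *ptgs1*-KO, 3.96 to 5.43 in *ptgs2*-KO, and 3.62 to 4.54 in *ptges*-KO cells, and did not pass the test in any line.

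A ratio within a sample does not depend on the scaling of that sample. *Psmb10* RNA was 2.70%, 2.37%, and 2.06% of *Psmb7* RNA per length in scramble cells and 3.92%, 3.80%, and 3.74% in *ptgs1*-KO cells. The *ptgs1*-KO ratios lay above all others, and the difference of 1.44 percentage points had p = 0.1 in the exact two-sided permutation test, the smallest p that 3 against 3 samples allow. *Psmb5*, *Psmb6*, and *Psmb7* had log2 fold changes of -0.31 to -0.14 in *ptgs1*-KO against scramble cells, none called. The ratio thus mixes the differences of *Psmb10* and *Psmb7*. In *ptgs2*-KO cells the ratio was 2.66% ± 0.356 (SD, n = 3) and in *ptges*-KO cells 2.60% ± 0.0207, with overlap with scramble cells in both (exact p = 0.5 and 0.4).

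The TAP transporter, which carries peptides into the endoplasmic reticulum, is made of TAP1 and TAP2. The 2 genes lie beside *Psmb9* and *Psmb8* within 34.3 kb of chromosome 17, in the order *Psmb9*, *Tap1*, *Psmb8*, *Tap2*. *Tap1* (chr17:34187553-34197225, plus strand) was 11.10, 14.29, and 11.52 RPKM in scramble, 6.97, 8.43, and 6.85 in *ptgs1*-KO, 14.45, 16.01, and 12.44 in *ptgs2*-KO, and 11.89, 9.20, and 11.08 in *ptges*-KO cells. The *ptgs1*-KO samples lay below the 9 others. *Tap1* fell by 0.66 ± 0.13 in *ptgs1*-KO cells (adjusted p = 0.00625), a call that held in all 20 alternatives. It was higher in *ptgs2*-KO (0.86 ± 0.13, adjusted p = 3.77e-04) and *ptges*-KO cells (0.48 ± 0.13, adjusted p = 0.0154) than in *ptgs1*-KO cells, the latter lost without *ptgs1*-KO replicate 1 or *ptges*-KO replicate 3 (adjusted p = 0.0523 and 0.0528).

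The order of the group means of *Tap2* was the reverse of that of *Tap1*. *Tap2* was 11.79, 12.42, and 12.20 RPKM in scramble, 14.91, 17.54, and 14.87 in *ptgs1*-KO, 10.49, 10.33, and 9.10 in *ptgs2*-KO, and 15.70, 14.26, and 14.25 in *ptges*-KO cells. *ptgs2*-KO samples were the lowest and *ptgs1*-KO and *ptges*-KO samples the highest, with scramble samples between them. *Tap2* was lower in *ptgs2*-KO than in *ptgs1*-KO cells (-0.61 ± 0.093, adjusted p = 3.67e-04) and higher in the *ptges*-KO line than in the *ptgs2*-KO line (0.52 ± 0.093, adjusted p = 0.00183), and both calls held in all alternatives. The rise of 0.35 ± 0.093 in *ptgs1*-KO against scramble cells (adjusted p = 0.0318) was lost with only these 2 groups in the model (adjusted p = 0.0825) and without any 1 scramble sample, *ptgs1*-KO replicate 2, or *ptges*-KO replicate 2 (adjusted p = 0.0507 to 0.119). The *Tap1* and *Psmb9* annotations overlap on opposite strands, and *Tap2* overlaps the annotated antisense gene *Gm20496*. A kit that keeps the strand is among those named for these samples, but whether the counting used it is not given in the sources used here.

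*Tapbp* (chr17:33915899-33929292, plus strand) encodes tapasin, which joins the TAP transporter to empty class I molecules. It was 32.76, 32.46, and 37.34 RPKM in scramble, 43.70, 39.92, and 32.20 in *ptgs1*-KO, 26.88, 23.16, and 20.02 in *ptgs2*-KO, and 33.90, 28.54, and 29.43 in *ptges*-KO cells. The *ptgs2*-KO samples lay below the 9 others. *Tapbp* fell by 0.54 ± 0.13 in *ptgs2*-KO cells (adjusted p = 0.0154), a call lost without scramble replicate 3 or *ptgs2*-KO replicate 3 (adjusted p = 0.0655 and 0.0687), and it was lower than in *ptgs1*-KO cells by 0.70 ± 0.13 (adjusted p = 0.00128). Its annotation overlaps *Zbtb22* on the same strand.

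**Figure D5:**
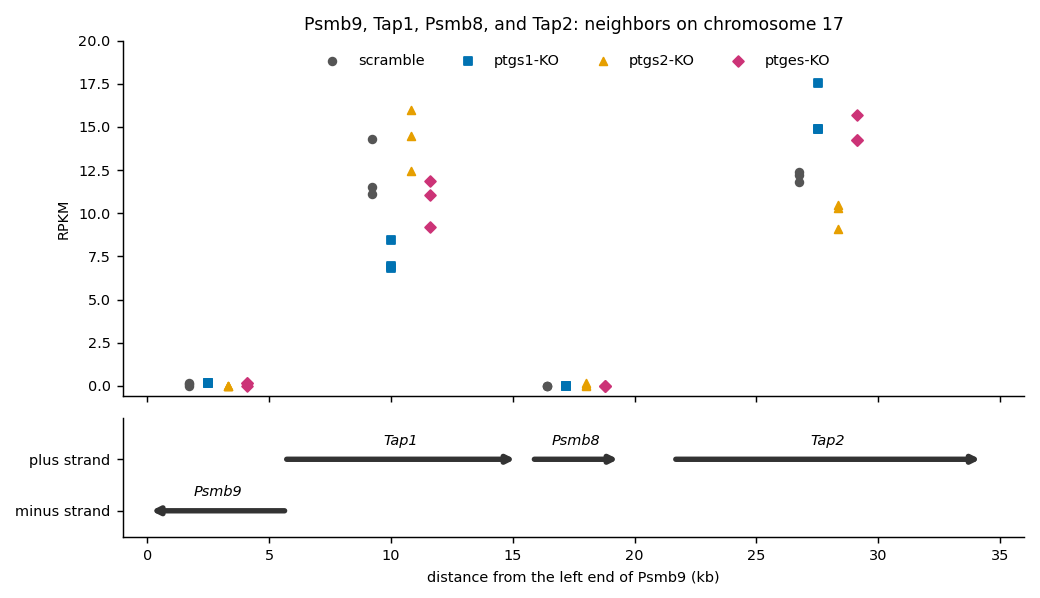
RPKM of *Psmb9*, *Tap1*, *Psmb8*, and *Tap2* in the 12 samples (upper panel) above the extent and direction of each gene in kb from the left end of *Psmb9* (lower panel). *Psmb9* and *Psmb8* stay at or below 0.18 RPKM, *Tap1* is lowest in *ptgs1*-KO samples (6.85 to 8.43 RPKM), and *Tap2* is lowest in *ptgs2*-KO samples (9.10 to 10.49 RPKM).

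The RNAs of the MHC class I molecules were abundant in these cells. *B2m*, for the light chain shared by all class I molecules, averaged 360 RPKM over all samples, the heavy chain gene *H2-D1* 246 RPKM, and *H2-K1* 194 RPKM. They stood at the 97.3, 95.9, and 94.4 percentiles of mean level among the genes tested. *H2-K1* (chr17:33996017-34000347, minus strand) was 229.87, 226.37, and 216.47 RPKM in scramble, 189.74, 203.36, and 163.95 in *ptgs1*-KO, 165.50, 233.23, and 196.94 in *ptgs2*-KO, and 158.80, 172.07, and 176.48 in *ptges*-KO cells. All *ptgs1*-KO and *ptges*-KO samples lay below the scramble samples, and the *ptgs2*-KO samples overlapped with them. *H2-K1* fell by 0.41 ± 0.11 in *ptges*-KO cells (adjusted p = 0.0184), and this call was lost without scramble replicate 1 or 2 or *ptges*-KO replicate 1 (adjusted p = 0.0535 to 0.0584). The difference of -0.28 ± 0.11 in *ptgs1*-KO cells did not pass the test (adjusted p = 0.158).

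*H2-D1* was 211.80 to 288.31 RPKM and was called in no comparison, with a 95% interval of the log2 fold change from -0.40 to 0.08 in *ptges*-KO cells. *H2-K1* and *H2-D1* are close copies of each other and of further class I genes, so their values may share reads. *B2m* was 389.44, 371.70, and 351.88 RPKM in scramble, 383.61, 376.72, and 282.83 in *ptgs1*-KO, 292.83, 329.44, and 310.44 in *ptgs2*-KO, and 388.98, 408.57, and 438.49 in *ptges*-KO cells. The *ptgs2*-KO samples lay below the scramble and *ptges*-KO samples, and the *ptges*-KO samples overlapped with the scramble samples. *B2m* was called in none of the lines against scramble cells (log2 fold changes of -0.11, -0.25, and 0.15), and was higher in the *ptges*-KO line than in the *ptgs2*-KO line (0.41 ± 0.11, adjusted p = 0.0212). This call was lost without *ptgs2*-KO replicate 1 or *ptges*-KO replicate 2 or 3 (adjusted p = 0.0634 to 0.0893). With quantile normalization *B2m* was also called lower in *ptgs2*-KO than in scramble cells (-0.27, adjusted p = 0.0437). With the median ratio it was called higher in *ptges*-KO than in *ptgs1*-KO cells (0.29, adjusted p = 0.0264).

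Between the knockouts the largest number of these genes, and likewise of all genes, differed where *ptgs1*-KO cells were one side. The calls were 43.5% of the 23 in *ptgs2*-KO and 39.1% in *ptges*-KO against *ptgs1*-KO cells, and 26.1% in *ptges*-KO against *ptgs2*-KO cells. In *ptgs2*-KO against *ptgs1*-KO cells 10 of the 23 were called, 3 higher (*Ifnar2*, *Ifngr2*, *Tap1*) and 7 lower (*Ddx58*, *Ifitm3*, *Irf1*, *Irf9*, *Stat2*, *Tap2*, *Tapbp*), where 23.6% of all genes were called (12.1% higher, 11.6% lower). In *ptges*-KO against *ptgs1*-KO cells 9 were called, 4 higher (*Isg20*, *Ifnar2*, *Ifngr2*, *Tap1*) and 5 lower (*Ddx58*, *Ifitm3*, *Irf1*, *Irf9*, *Stat2*), where 30.2% of all genes were called (13.2% higher, 17% lower). With quantile normalization the split of this comparison was 6 higher and 5 lower, and with the median ratio 7 and 6. Over all genes it was 1970 higher and 1791 lower, and 2073 and 2049, instead of 1494 and 1915. Without *ptgs1*-KO replicate 3 the counts were 11 and 8, and 4 instead of 5 in *ptgs1*-KO against scramble cells. The shared *ptgs1*-KO samples enter both comparisons.

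In *ptges*-KO against *ptgs2*-KO cells, which compares the loss of the last enzyme of the pathway with that of an earlier one, 6 of the 23 were called, beside 16.6% of all genes (6.76% higher, 9.84% lower). *Ddx58*, *Isg20*, *Trim25*, *Tap2*, and *B2m* were higher in *ptges*-KO cells and *Ifngr2* lower, and 3 of these calls were left without *ptges*-KO replicate 2 or 3. No label pairs the samples of these lines, and the replicate number was tried as a block after seeing the data. Deviations of same-numbered samples correlated at 0.57, 0.11, and 0.25, but *ptgs2*-KO replicate 2 correlated better with *ptges*-KO replicate 3 (0.32). With this block and only these 2 groups in the model, 10 of the 23 were called. These were the same 6 genes with *Ifitm3*, *Irf3*, and *Tapbp* higher and *Eif2ak2* lower (adjusted p = 0.00832 to 0.0379 for these 4). The blocked model called 3827 of all genes instead of 1873, and its 4 added calls rest on a pairing read from the same data. *Ifitm3* and *Stat2*, low in both lines, differed between them by 0.19 and 0.03 without the block, with 95% intervals from -0.00136 to 0.39 and from -0.20 to 0.26.

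Of the other genes of the pathway, 143 were listed, 131 were in the table, and 63 were tested. For *ptgs1*-KO 16 of the 63 were called (12 higher, 4 lower), for *ptgs2*-KO 15 (7 higher, 8 lower), and for *ptges*-KO 17 (7 higher, 10 lower), or 25.4%, 23.8%, and 27%, beside the 9.26%, 11.1%, and 26.3% of all genes. *Lgals9*, for the lectin galectin-9, was called in all 3 lines. It was 3.37, 3.83, and 4.14 RPKM in scramble cells and 6.28 to 8.28 in all knockout samples, a rise of 0.81 ± 0.10, 0.65 ± 0.10, and 0.67 ± 0.10 (adjusted p = 1.86e-04, 0.00134, and 4.79e-04). *Samd9l*, an antiviral gene, was 2.14 to 2.36 RPKM in scramble cells and rose by 0.74 ± 0.11 in *ptgs1*-KO and 0.66 ± 0.11 in *ptgs2*-KO cells (adjusted p = 9.06e-04 and 0.00250). In *ptgs1*-KO cells the class I-like *Mr1*, which presents microbial metabolites, rose from 0.837 to 2.46 RPKM (0.92 ± 0.14, adjusted p = 0.00107), and the guanylate-binding *Gbp4* fell from 1.60 to 0.563 RPKM (-0.73 ± 0.12, adjusted p = 0.00176). *Gbp4* fell in *ptgs2*-KO cells as well (-0.56 ± 0.12, adjusted p = 0.00998).

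In *ptges*-KO cells *Gbp9* was 3.32, 3.34, and 3.23 RPKM against 0.39 to 1.24 in the 9 other samples, a rise of 1.16 ± 0.15 over scramble cells (adjusted p = 1.34e-04). Its mean reached the limit of 1 RPKM through the *ptges*-KO samples, so this call, counted above, is not independent of that filter. *Socs3*, an inhibitor of JAK-STAT signaling, was 37.36 to 39.84 RPKM in scramble cells, 43.88 to 52.96 in *ptgs1*-KO, 24.17 to 26.59 in *ptgs2*-KO, and 20.84 to 23.72 in *ptges*-KO cells. It rose in *ptgs1*-KO (0.34 ± 0.086, adjusted p = 0.0259) and fell in *ptgs2*-KO (-0.60 ± 0.086, adjusted p = 6.66e-04) and *ptges*-KO cells (-0.78 ± 0.086, adjusted p = 3.42e-05). *Ptpn6*, for the phosphatase SHP-1, rose by 0.58 ± 0.14 in *ptges*-KO cells (adjusted p = 0.00815) and fell by 0.69 ± 0.14 in *ptgs1*-KO cells (adjusted p = 0.00630). Of the 9 MHC class II genes, 4 (*H2-Aa*, *H2-Ab1*, *H2-Oa*, *H2-Ob*) were listed at 0 in all samples and 1 was tested. This was *H2-DMb1*, a gene of class II peptide loading, which was 0.79 to 1.34 RPKM in scramble cells and 2.46, 3.10, and 3.16 in *ptgs2*-KO cells (0.93 ± 0.20, adjusted p = 0.00910). The others, *Ciita*, *Cd74*, *H2-Eb1*, and *H2-DMa*, had means under 1 RPKM. Of the 16 calls of the other pathway genes in *ptgs1*-KO cells, *Ifi30* and *Parp9* were lost without *ptgs1*-KO replicate 3 (adjusted p = 0.102 and 0.0537), and those of *Ifitm1*, *Lgals9*, *Samd9l*, *Mr1*, *Gbp4*, *Socs3*, and *Ptpn6* remained (adjusted p = 1.18e-05 to 0.0144).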

How the data were processed

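RNA was extracted from 12 cultures, and mRNA libraries made from it were sequenced in paired ends of 101 bp. As deposited by the authors, the data are 1 table of RPKM values to 2 decimals for 30705 gene names. The RPKM unit is taken from a legend of the study, while its methods speak of normalized counts, and the sums of 878504 to 903881 per sample cannot tell a scaling to a fixed total apart. The submitters' processing notes name the build mm10. The aligner, counter, and annotation, and whether strand was used, are not given in the sources used here. Depth was estimated from the steps between low RPKM values and is least certain in *ptgs1*-KO replicate 1.

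RPKM + 1 was log2-transformed for the 11282 genes whose mean reached 1 RPKM. All 12 samples were fitted with limma 3.58.1 (R 4.3.3, empirical Bayes with trend), and p-values were adjusted by Benjamini-Hochberg over these genes in each of 6 comparisons. The method was tested on simulated data. Single ratios were compared with exact permutation tests (scipy 1.17.1). Full values are given for members called against scramble cells and shifted by 0.5 or more on the log2 scale, and for others by role, and of the other pathway genes the 5 largest called changes per line are named. Genes outside these rules were named after their values were seen. The members and lists were chosen with earlier results of these data known. A gene of the wider pathway list is not reported here. Coordinates are from GENCODE M21 (GRCm38). Alternatives were another pseudocount (0.1), no filter, a mean of at least 10 RPKM, median ratio and quantile scaling, no trend, only the 2 groups compared, a replicate block, and each sample left out.

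Deviations of same-numbered samples correlated by more than 0.1 in 5 of 18 pairs (r from -0.34 to 0.57). Between *ptges*-KO and *ptgs2*-KO samples all 3 pairs did (0.57, 0.11, and 0.25), so a block for these lines alone was fitted as an alternative. That choice came from the data and not from the labels, and *ptgs2*-KO replicate 2 correlated better with *ptges*-KO replicate 3 (0.32).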

Additional observations from a re-analysis of the deposited data

How the results depend on the processing

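Of the 42 calls of these genes in the 6 comparisons, 28 were kept under every alternative that tested the gene, 14 were lost under at least 1, and none reversed. There were 20 alternatives, and 19 for *Ddx58*, *Stat2*, *Irf9*, and *Ifnar2*, which have means under 10 RPKM. The number called in *ptges*-KO against scramble cells was 7, and 11 with median ratio scaling and 12 with quantile normalization. Of all 11282 genes 2969, 3721, and 3476 were called in the same order. With a mean of at least 10 RPKM, where fewer genes enter, 3 instead of 5 were called in *ptgs1*-KO against scramble, 6 instead of 10 in *ptgs2*-KO against *ptgs1*-KO, and 5 instead of 9 in *ptges*-KO against *ptgs1*-KO cells, and of the other pathway genes 7 instead of 16 in *ptgs1*-KO and 6 instead of 15 in *ptgs2*-KO cells. Without a filter 14 were called in *ptges*-KO against *ptgs1*-KO cells, since the 20 low genes then enter. With only the groups compared and the replicate block, 10 instead of 6 were called in *ptges*-KO against *ptgs2*-KO cells. In 100 bases, a shorter window, the ISRE share was 13.9% (1.14% of all genes) and the GAS share 11.1% (3.00%).

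With a sample left out, 2 to 5 of the genes were called in *ptgs1*-KO, 4 to 6 in *ptgs2*-KO, and 5 to 8 in *ptges*-KO against scramble cells, 3 to 7 in *ptges*-KO against *ptgs2*-KO, 8 to 11 in *ptgs2*-KO against *ptgs1*-KO, and 7 to 10 in *ptges*-KO against *ptgs1*-KO cells. Of the other pathway genes 10 to 18, 9 to 16, and 11 to 19 were called. The *Psmb10* to *Psmb7* difference was 1.28 to 1.60, 0.0923 to 0.447, and 0.0586 to 0.378 percentage points in the 3 lines.

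Over all genes, 1045 were called in *ptgs1*-KO against scramble cells, 582 at a mean of at least 10 RPKM, 1570 with quantile normalization, and 645 and 658 without scramble replicate 1 or 2. In *ptgs2*-KO cells 1257 were called, 1927 with the median ratio, and 722 to 829 without a scramble sample or *ptgs2*-KO replicate 1 or 3. In *ptges*-KO cells 2969 were called, and 1936 without *ptges*-KO replicate 2. In *ptges*-KO against *ptgs2*-KO cells 1873 were called, 1104 and 1193 without *ptges*-KO replicate 2 or 3, and 1209 without *ptgs2*-KO replicate 1. Scaling moved the median log2 fold change of all genes by less than 0.1.

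A block over all 12 samples was also fitted, though no label pairs samples by replicate number. With it, *Irf1* was called in *ptgs1*-KO (adjusted p = 0.0254) and *Ifit2* in *ptges*-KO against scramble cells (0.0483). So were *Tapbp* in *ptges*-KO against *ptgs2*-KO (0.0375) and *Trim25* in *ptges*-KO against *ptgs1*-KO cells (0.0483). *Ddx58* was lost in *ptges*-KO against *ptgs2*-KO (0.0616) and *Irf9* in *ptgs2*-KO against *ptgs1*-KO cells (0.0501), and the block changed no other call of these genes. Of the 12 samples, 5 correlated best with a sample of their own number. The block over only these lines, the alternatives for the other pathway genes, and the unfiltered values without *ptgs1*-KO replicate 3 were chosen after seeing the data. The causes of these shifts were not tested. At the estimated depth, values under 0.1 RPKM stand for a few reads each.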
